A study of Mus musculus with 8 samples.

Results

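Endothelial selectins and the vascular adhesion molecules of the immunoglobulin family were followed in putative stem cells cultured from mouse hind limb muscle. The 7 genes were Selp, Sele, Selplg, Icam1, Icam2, Vcam1 and Esam, out of 18193 genes that had a probe set with a single symbol. They were found by symbol on the Affymetrix arrays MOE430A and MOE430B and had 11 of 45037 probe sets, 10 on MOE430A and 1 on MOE430B. All 11 are shown. The genes were picked with the contrast between the groups already known, so their values are a description and no test is claimed for them.

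RNA came from 4 primary cultures, each hybridised to both array types. The MACS cultures, replicates 2 and 3, had been enriched with magnetic beads for Sca1, a surface protein of many muscle-resident progenitors, and depleted of CD45, the common leukocyte antigen. The PP6 cultures, replicates 2 and 3, had been obtained by preplating, a series of transfers that sorts cells by their speed of attachment to plastic. No strain, age, sex or genotype was given, and nothing says whether replicates came from separate animals, so the spread between them may be partly technical. Both groups were grown in F10 Ham medium with serum, and muscle cells were named as the contaminating type in both. RNA concentration was 55 and 65 ng/ul in MACS and 35 and 15 ng/ul in PP6, replicates 2 and 3. Sorting purity was estimated by flow cytometry for MACS, and no estimate was given for PP6. In bulk RNA, fewer cells of a type and less RNA per cell cannot be told apart.

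Selectins are lectins that slow leukocytes on the vessel wall by binding sugar chains on their surface. P-selectin, the product of Selp, is stored in granules of endothelial cells and platelets, whereas E-selectin, from Sele, is made by endothelium exposed to cytokines such as TNF and interleukin 1. Selplg encodes PSGL-1, the leukocyte mucin that all selectins can bind. Firm adhesion follows through ICAM-1, ICAM-2 and VCAM-1, which are ligands of leukocyte integrins, and ESAM is an immunoglobulin-family protein of endothelial junctions and platelets. Some members are also made outside vessels. Vcam1 is carried by satellite cells, the muscle stem cells, and ICAM-1 can be induced in fibroblasts and myoblasts.

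Promoter sequences, 250 bases before to 50 bases after a transcript start, were at hand for 3 of the 7 genes, Selp, Sele and Icam1, and these are also the members whose signal was lower in PP6 by over 1 log2 unit at every probe set. They are shown because induction of Sele and Icam1 by cytokines is known to run through NF-kB sites close to the start. The sequences are those of RefSeq on GRCm38.p6, plus strand, 5′ to 3′. Capitals mark matches, on either strand, to an NF-kB-type motif of 10 bases, searched with any base allowed where its matches in Sele and Icam1 differ, to TGACATCA, an ATF-type element, to TATAAA, the TATA box, and to ACTTCC, an ETS core. The motifs were chosen after these promoters had been read, and none of their matches overlapped.
Sele chr1:164047984-164048283: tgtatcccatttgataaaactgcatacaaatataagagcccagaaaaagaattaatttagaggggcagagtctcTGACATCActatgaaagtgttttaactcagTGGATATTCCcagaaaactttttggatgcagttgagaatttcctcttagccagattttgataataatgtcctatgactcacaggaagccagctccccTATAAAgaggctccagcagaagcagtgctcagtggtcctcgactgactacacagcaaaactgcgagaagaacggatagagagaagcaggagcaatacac
Icam1 chr9:21015690-21015989: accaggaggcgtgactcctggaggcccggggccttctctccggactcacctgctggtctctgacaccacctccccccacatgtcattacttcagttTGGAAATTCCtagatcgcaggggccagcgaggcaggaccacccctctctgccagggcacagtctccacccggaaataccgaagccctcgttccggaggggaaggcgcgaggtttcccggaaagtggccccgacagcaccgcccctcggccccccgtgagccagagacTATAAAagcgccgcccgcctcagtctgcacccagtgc
Selp chr1:164115014-164115313: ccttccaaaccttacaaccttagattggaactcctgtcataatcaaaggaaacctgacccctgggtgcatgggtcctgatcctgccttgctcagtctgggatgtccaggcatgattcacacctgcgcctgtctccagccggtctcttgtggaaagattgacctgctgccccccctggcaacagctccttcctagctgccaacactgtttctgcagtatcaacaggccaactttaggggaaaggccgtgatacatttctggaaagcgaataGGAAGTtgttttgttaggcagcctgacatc

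The NF-kB-type motif lay from -146 to -137 in Sele, as TGGATATTCC, and from -154 to -145 in Icam1, as TGGAAATTCC, counted from the start site with no position 0. Of 32851 promoter windows of this length, 74 held it, or 0.225%. Its presence in Sele and Icam1 was fixed by how it was chosen, so nothing is read from that share. TATAAA began at -49 in Sele and at 14 in Icam1, downstream of the annotated start, and 13.6% of windows held it. TGACATCA lay from -176 to -169 in Sele and in 3.62% of windows. The Selp window had 1 match, to the ETS core on the minus strand from 21 to 26, a motif of 23.8% of windows. A match describes letters only, and occupancy was not measured.

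Values are MAS5 signals on a log2 scale after scaling of the arrays, and a difference is the PP6 mean minus the MACS mean in log2 units. Detection calls were not used here, so the median of an array served as a mark of dimness: it lay between 9.14 and 9.30 on MOE430A and between 9.60 and 9.79 on MOE430B. The same 100 probe sets, present on both types, read a median of 2.09 log2 units higher on MOE430B, so levels are set side by side only within a probe set. Their PP6 minus MACS differences on the 2 types were a median of 0.24 apart, and 0.88 at most.

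**Figure D1:**
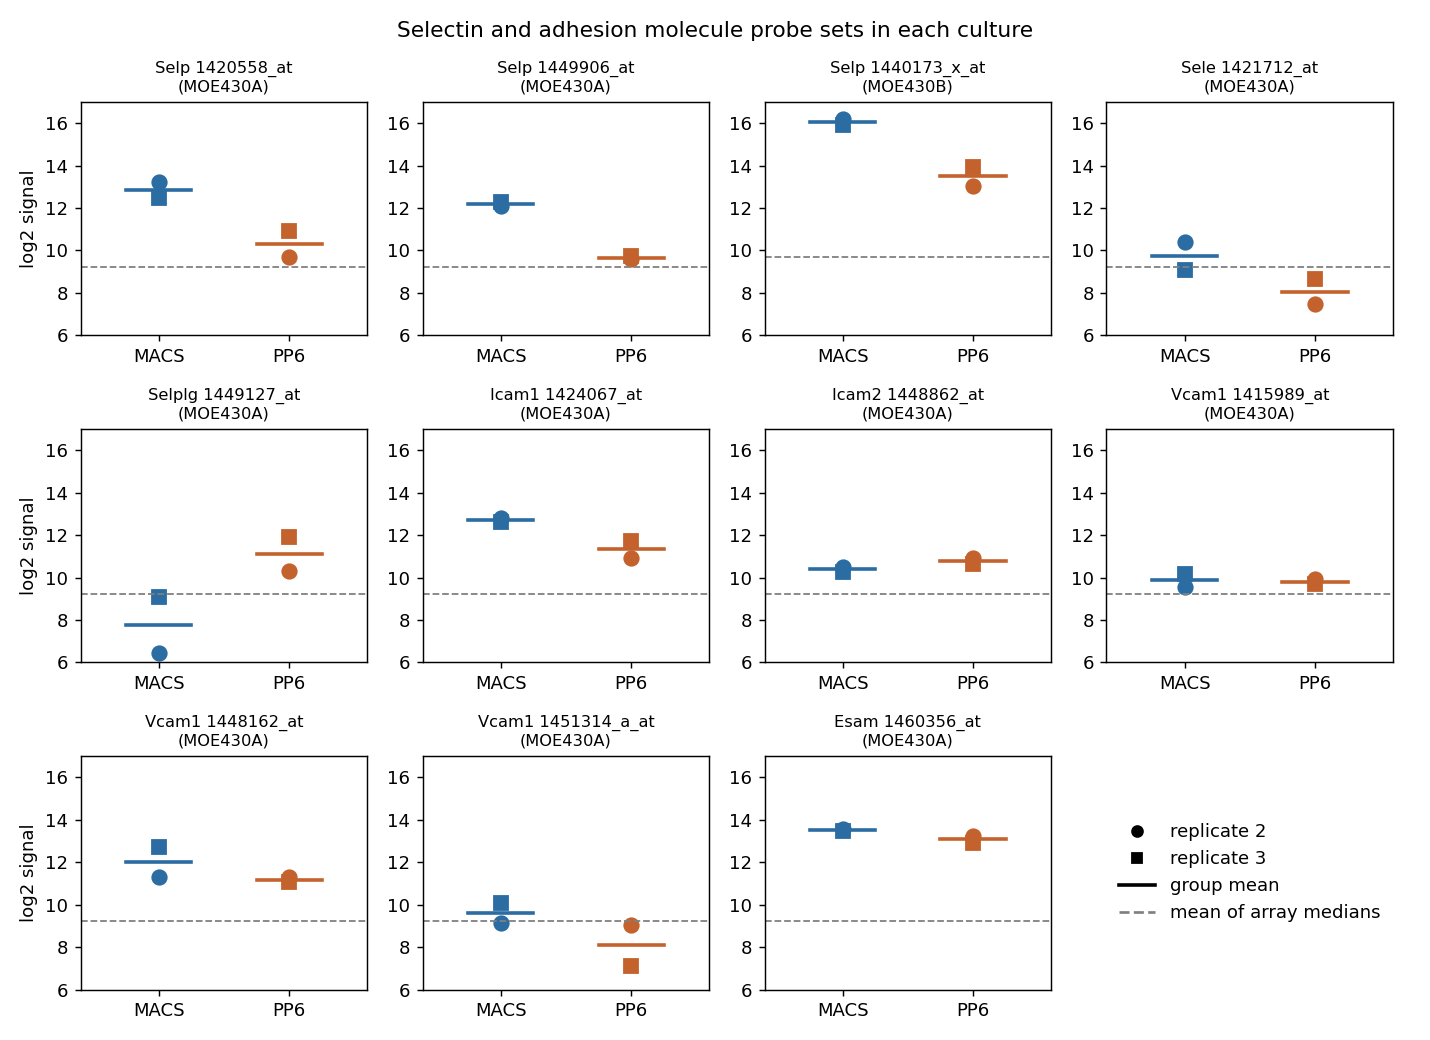
Log2 signal (vertical axis) of each of the 11 probe sets in the MACS and PP6 cultures, with replicate 2 as circles, replicate 3 as squares, bars for group means and a dashed line at the mean of the array medians. At the 3 Selp probe sets both PP6 points lie below both MACS points, Selplg shows the opposite order, and Icam2, Vcam1 1415989_at and Esam stay within 1 log2 unit over all cultures.

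P-selectin gave the clearest separation of the members. At probe set 1449906_at Selp read 12.10 and 12.30 in MACS replicates 2 and 3, and 9.59 and 9.73 in PP6 replicates 2 and 3. At 1420558_at it read 13.22 and 12.46 in MACS and 9.68 and 10.93 in PP6. At 1440173_x_at, on MOE430B, it read 16.18 and 15.89 against 13.05 and 13.93. Both PP6 cultures thus lay below both MACS cultures at every probe set, by 1.53 to 2.37 log2 units between the nearest cultures of the groups. The difference was -2.54 at each probe set, with standard errors of 0.49, 0.26 and 0.33 for 1420558_at, 1449906_at and 1440173_x_at, or 5.80- to 5.83-fold lower in PP6. The suffix _x_at of the third marks probes that can match other transcripts. Ordered from the most negative difference, the probe sets stood at places 53, 55 and 57 of 23963 tested.

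Selp stayed above the array median in every culture. In PP6 it was 0.31 and 0.43 log2 units above the median at 1449906_at, 0.40 and 1.63 above at 1420558_at, and 3.32 and 4.14 above at 1440173_x_at. In MACS the excess ran from 2.95 to 6.50. Leaving out each culture in turn moved the difference between -3.16 and -1.91 at 1420558_at, between -2.65 and -2.44 at 1449906_at and between -2.98 and -2.11 at 1440173_x_at.

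E-selectin was read near or below the array median in most cultures. Sele, at 1421712_at, read 10.39 and 9.07 in MACS and 7.48 and 8.64 in PP6. The groups did not overlap, though the nearest cultures were 0.43 apart and the MACS cultures differed from each other by more than that. MACS replicate 2 alone lay above its array median, by 1.24, so the probe set was not tested. The means were 9.73 ± 0.93 and 8.06 ± 0.82 (SD, n = 2), a difference of -1.67. Dropping MACS replicate 3 made it -2.33 and dropping MACS replicate 2 made it -1.01. A floor set at each array's median gave -0.50. The size of the Sele difference therefore depends on signals below the median.

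Selplg, the gene of the selectin ligand PSGL-1, ran the other way. It read 6.44 and 9.09 in MACS and 10.30 and 11.93 in PP6, so both PP6 cultures were above both MACS cultures by at least 1.20. The spread within MACS was the widest of any member, with an SD of 1.88, and relative to the array median the MACS values stood at -2.71 and -0.09. The difference was 3.35 ± 1.02 (SE), or 10.2-fold, at place 52 from the most positive of the 23963. It was 2.02 without MACS replicate 2, 4.67 without MACS replicate 3, and 1.95 under the same floor. Since Selplg passed the brightness filter only through the PP6 cultures, its sign was fixed by the filter.

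ICAM-1 is the inducible ligand of the integrins LFA-1 and Mac-1. Icam1, at 1424067_at, read 12.83 and 12.62 in MACS and 10.94 and 11.74 in PP6. All values lay above the array median, and the nearest cultures of the groups were 0.88 apart. The means of 12.72 ± 0.15 and 11.34 ± 0.57 (SD, n = 2) gave a difference of -1.38 ± 0.32 (SE), or 2.60-fold lower, with a range of -1.78 to -0.98 when each culture was left out. PP6 replicate 2 lay below PP6 replicate 3, an order also seen at the 3 Selp probe sets, Sele and Selplg.

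ICAM-2, which endothelium carries without induction, showed a small difference of the opposite sign. Icam2, at 1448862_at, read 10.51 and 10.28 in MACS and 10.91 and 10.65 in PP6, which is 0.38 ± 0.29 (SE). The groups were apart by 0.13. The difference stayed positive when each culture was left out, from 0.25 to 0.52. Esam, at 1460356_at, read 13.57 and 13.47 in MACS and 13.26 and 12.91 in PP6. The groups were apart by 0.21, and the difference of -0.44 ± 0.22 (SE) ran from -0.61 to -0.26. Both genes are known from endothelium, and their differences were of opposite sign and under 0.5.

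The 3 Vcam1 probe sets did not give a single answer. At 1448162_at Vcam1 read 11.31 and 12.70 in MACS and 11.29 and 11.05 in PP6. At 1415989_at it read 9.55 and 10.18 against 9.93 and 9.69, and at 1451314_a_at 9.12 and 10.10 against 9.04 and 7.13. MACS replicate 3 was the highest culture at all 3, while MACS replicate 2 lay within 0.08 of PP6 replicate 2 at 1448162_at and 1451314_a_at. The differences were -0.84 ± 0.47 (SE) at 1448162_at, -0.06 ± 0.41 at 1415989_at and -1.52 at 1451314_a_at, which was not tested. Without MACS replicate 3 they were -0.14, 0.26 and -1.03, and without MACS replicate 2 they were -1.53, -0.37 and -2.01. The groups overlapped at 1415989_at, the only such member probe set.

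**Figure D2:**
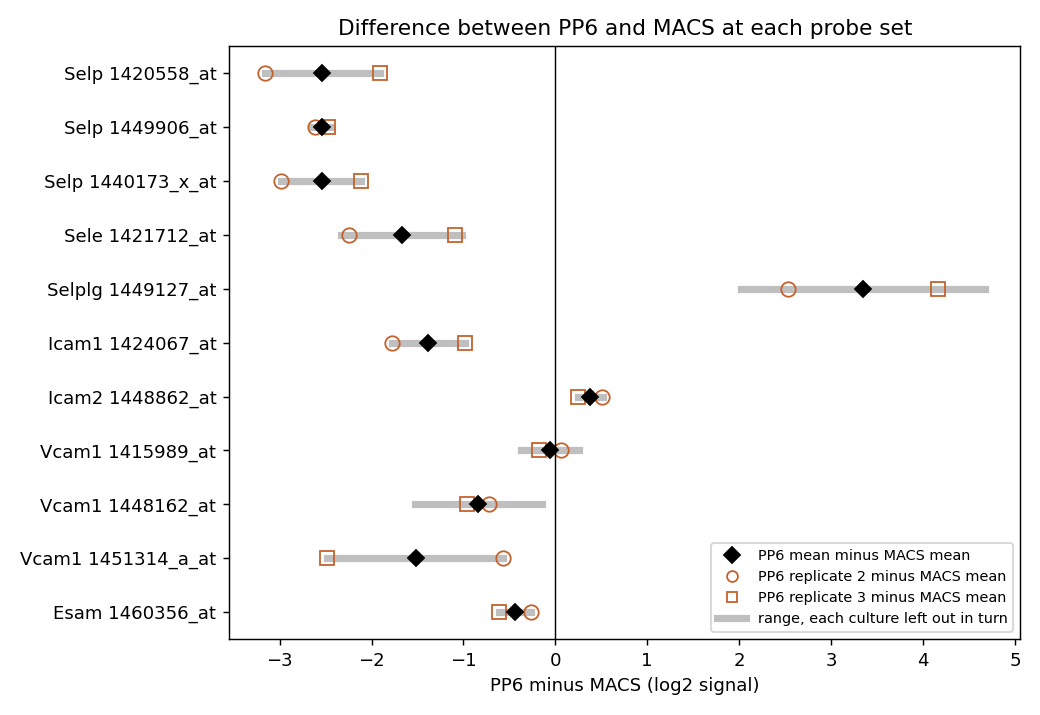
PP6 minus MACS in log2 signal (horizontal axis) for each probe set: diamonds are differences of group means, open circles and squares are PP6 replicates 2 and 3 against the MACS mean, and grey bars span the values with each culture left out in turn. The Selp bars lie between -3.16 and -1.91, that of Selplg between 2.02 and 4.67, and only the bar of Vcam1 1415989_at crosses 0.

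Of the 11 probe sets, 9 passed the brightness filter, that is, were above the median of their own array in at least 2 cultures; Sele and Vcam1 1451314_a_at did not. Over all 11, PP6 lay wholly below MACS at 8, beside 17.6% of all 45037 probe sets, and wholly above at 2, beside 23%. Among the 9 tested, PP6 lay wholly below MACS at 6, beside 21.7% of all tested probe sets, and wholly above at 2, beside 22.5%. In limma's fit across all tested probe sets 0 of the 9 passed a Benjamini-Hochberg adjusted p of 0.05, beside 0% of the 23963, and no adjusted p fell under 0.255. Without adjustment, at a p of 0.05, the fit counted 4 members as lower, the 3 Selp probe sets and Icam1, beside 5.83% of all, and 1 as higher, Selplg, beside 5.69%. The members were picked on this contrast, so nothing is read from these counts. With 2 cultures against 2 an exact permutation test cannot give a two-sided p below 33.3%. On MOE430A fitted alone, 71 of 11835 probe sets passed the adjusted threshold, or 0.6%, and Selp 1449906_at was the only member among them.

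**Figure D3:**
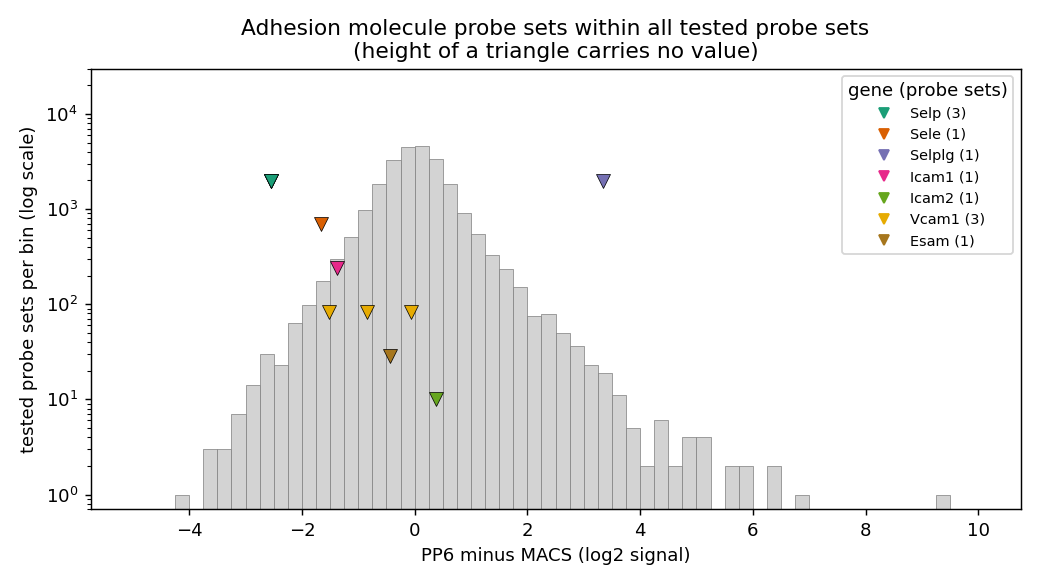
Number of tested probe sets (vertical axis, log scale) by PP6 minus MACS in log2 signal (horizontal axis, bins of 0.25), with a triangle for each member probe set, the untested ones included. The 3 Selp triangles coincide at -2.54 in the lower tail, Selplg lies at 3.35 in the upper tail, and those of Icam2 and Esam lie within 0.5 of 0.

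A list of 16 integrins and glycoproteins of leukocyte contacts, of which 12 were tested, held the leukocyte receptors of the members and also molecules that vessels carry, such as Podxl and Madcam1. At an unadjusted p of 0.05 in limma's fit, 3 were higher in PP6 and 2 lower, beside 5.81% and 5.44% of 12278 genes, and 0 passed after adjustment. Itgb2, the beta chain of LFA-1 and Mac-1 and thus of the ICAM-1 receptors, read 9.0 and 9.22 in MACS and 10.77 and 12.43 in PP6, a difference of 2.49 ± 0.58 (SE) with an adjusted p of 0.314. Itgal, the alpha chain of LFA-1, read 8.83 and 10.48 against 11.16 and 11.46, a difference of 1.65 ± 0.57, and its other probe set, below the array median in 3 of 4 cultures, gave 0.31. Itga4, the alpha chain of the VCAM-1 receptor VLA-4, differed by 0.99 ± 0.38. Its other probe sets, below the array median in every culture, ran from -0.95 to 0.71. PP6 thus read higher at both of these LFA-1 chains and lower at Icam1 itself. The difference was -0.76 ± 0.21 for Podxl, a sialomucin of endothelium, although a dimmer Podxl probe set gave 1.66, and -0.54 ± 0.20 for Itgav, whose other probe sets, each dim in at least 2 cultures, ran from -0.98 to 1.44. The median of the 12 was 0.29, beside 0.02 for all tested genes.

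P- and E-selectin bind sialylated and fucosylated sugars, and 8 of 12 enzymes that build or modify selectin ligands were tested. None was past an unadjusted p of 0.05 in limma's fit, beside 5.81% higher and 5.44% lower of all tested genes. With 0 past the adjusted threshold, differences lay between -0.48 and 0.53 with a median of 0.25. Tpst2, which sulphates tyrosines of PSGL-1, differed by 0.53 ± 0.31 (SE), and the galactosyltransferase gene B4galt1 by 0.33 ± 0.20. The sialyltransferase gene St3gal4 differed by -0.48 ± 0.44. For the fucosyltransferase gene Fut4 cultures of the same group were over 1.8 log2 units apart, and the difference was -0.04 ± 1.26. An untested Fut4 probe set gave 0.89. Fut7, the main leukocyte fucosyltransferase for selectin ligands, was below the array median in all 4 cultures and was not tested.

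Endothelial junction genes and other adhesion molecules of the immunoglobulin family gave 13 tested genes of 16. Again 0 were past an unadjusted p of 0.05 in limma's fit, beside 5.81% higher and 5.44% lower of all tested genes. After adjustment 0 passed. Cdh5, the cadherin of endothelial junctions, differed by -0.40 ± 0.26 (SE), F11r, which encodes JAM-A, by -0.28 ± 0.31, and Pecam1 by -0.29 ± 0.33. Cldn5, the endothelial claudin, read 12.08 and 12.46 in MACS and 12.36 and 12.33 in PP6. Bcam differed by 0.89 ± 0.41. Alcam differed by 0.97 ± 0.45 at a probe set that passed the filter only through PP6, which fixed its sign, and its other probe sets ran from -0.70 to 1.40. The 13 values ran from -0.40 to 0.97, with a median of 0.25.

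Cytokine receptors and NF-kB components that feed the promoters of Sele, Icam1 and Vcam1 had a median difference of -0.01 over 18 tested genes of 21. At an unadjusted p of 0.05 in limma's fit 1 was higher and 2 were lower, beside 5.81% and 5.44% of all tested genes. After adjustment 0 passed. Il1r1, the interleukin 1 receptor, read 10.17 and 10.92 in MACS and 9.59 and 8.42 in PP6, a difference of -1.54 ± 0.56 (SE). Its other probe set, below the array median in every culture, gave 1.83. The TNF receptor gene Tnfrsf1a differed by 0.56 ± 0.19. Nfkbie, which encodes an inhibitor of NF-kB, differed by -2.66 ± 0.82 at a probe set that passed the brightness filter only through MACS, which fixed its sign, and by 0.38 at its other, dim probe set. Il6, which encodes interleukin 6, differed by 0.62 ± 0.35. Rela, the activating subunit, differed by 0.02 ± 0.24, and Nfkbia, the inhibitor gene that NF-kB itself induces, by -0.04 ± 0.21. The other 4 Nfkbia probe sets gave -0.77 to -0.19.

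ICAM-1 and PSGL-1 are tied to the actin cortex by proteins of the ezrin family, and surface selectin, ICAM and VCAM proteins can be shed by ADAM proteases. All 6 genes of that list were tested. At an unadjusted p of 0.05 in limma's fit 2 were lower, beside 5.44% of all tested genes, with 0 after adjustment. Rdx, which encodes radixin, read 13.06 and 13.07 in MACS and 12.23 and 12.31 in PP6, a difference of -0.79 ± 0.20 (SE), and its other probe sets gave -0.69 and -0.22. The catenin gene Ctnnd1 differed by -1.68 ± 0.42 at a probe set that passed the brightness filter only through MACS, so that its sign was fixed by the filter, and by -0.75 and -0.49 at its other probe sets. Msn, Ezr, Adam10 and Adam17 lay between -0.46 and 0.06.

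**Figure D4:**
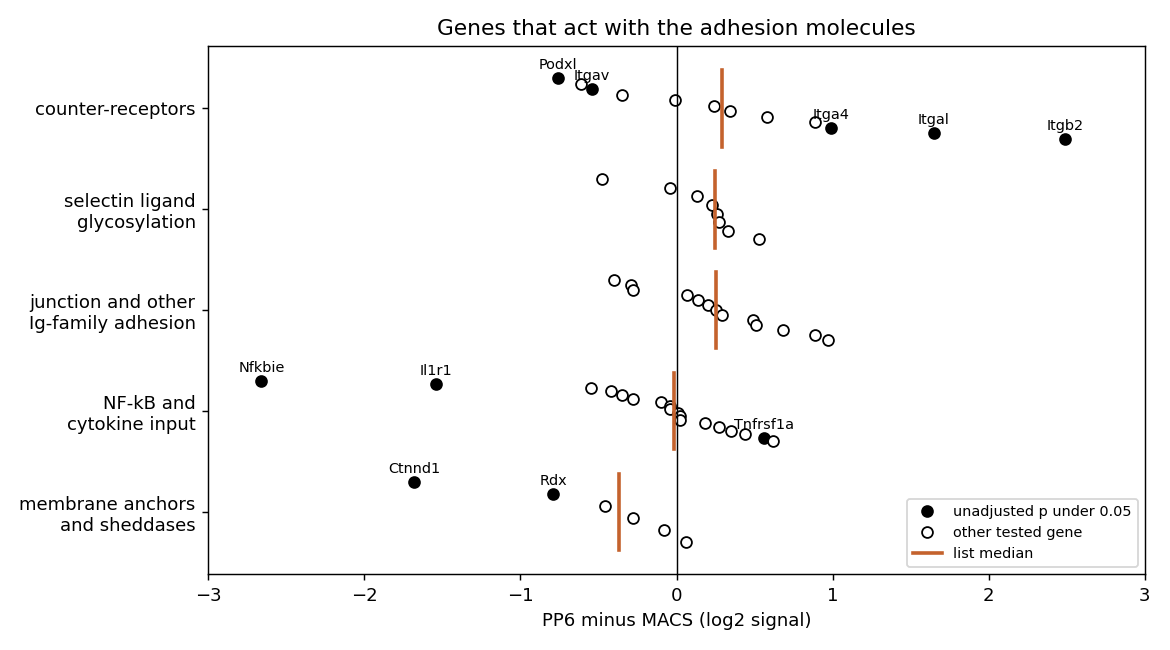
PP6 minus MACS in log2 signal (horizontal axis) for each tested gene of 5 lists of genes that act with the adhesion molecules; filled points had an unadjusted p under 0.05 in limma's fit, and coloured bars are list medians. The 2 leukocyte integrin chains Itgb2 and Itgal stand to the right at 2.49 and 1.65, and the glycosylation and junction lists hold no filled point.

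Markers of the cell types that carry these molecules also read differently in the 2 groups. Of 11 endothelial markers 10 were tested, none of them a member. Sums of signal are given within MOE430A, as a brightness that the brightest probe sets weigh on most. Over the 9 endothelial markers there it was 44234 and 41470 in MACS and 33646 and 32880 in PP6, so the groups did not overlap. The median difference was -0.47. At an unadjusted p of 0.05 in limma's fit 4 markers were lower and 0 higher, beside 5.44% and 5.81% of all tested genes. Vwf, which encodes von Willebrand factor and shares its storage granule with P-selectin, read 12.22 and 12.02 in MACS and 10.89 and 11.27 in PP6. Sox17, Erg and Eng, the others of the 4, differed by -1.09 ± 0.27 (SE), -1.33 ± 0.44 and -0.59 ± 0.21, while Egfl7 and Robo4 differed by 0.09 ± 0.21 and 0.04 ± 0.29. Tek, Kdr, Emcn and Flt1 lay between -0.59 and -0.22 at the probe set used, and the other Flt1 probe sets ran from -0.86 to -0.68. The untested marker, Tie1, was below the array median in every culture, with a difference of -2.74. No marker was listed at 0, and the lowest value among the 10 was 10.44.

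Set against the mean of the 10 endothelial markers in the same culture, Selp still differed by -2.00 to -2.01 at its 3 probe sets. On that scale Sele differed by -1.13 and Icam1 by -0.85, Esam by 0.10 and Icam2 by 0.92. Subtracting the marker mean therefore left the Selp difference at most of its size and took that of Esam to near 0. What part a change in the number of endothelial cells had in these differences was not tested.

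Platelets, the other main carriers of P-selectin, were checked through 5 tested markers of 7. The 4 on MOE430A, which leave out Itgb3, summed to signals of 8808 and 12063 in MACS and 27984 and 63061 in PP6. Pf4 and Ppbp weighed most on these sums, and the median difference of the 5 markers was 0.38. Pf4 read 12.28 and 13.04 in MACS and 14.27 and 15.34 in PP6, and Ppbp 10.92 and 10.82 against 12.54 and 14.23. Both encode chemokines of platelet granules and were higher in PP6, where Selp was lower. Itga2b and Gp1bb, which encode subunits of platelet surface receptors, differed by 0.38 ± 0.31 (SE) and 0.34 ± 0.38, and Itgb3 by -0.75 ± 0.34. The part of platelets in the Selp signal was not tested.

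The leukocyte markers read higher in PP6, as did Selplg, whose own sign the brightness filter had fixed. All 11 markers were tested. At an unadjusted p of 0.05 in limma's fit all 11 were higher, beside 5.81% of all tested genes, with 0 after adjustment. However, 5 of them, Cd53, Coro1a, Fcer1g, Ptprc and Spi1, passed the brightness filter only through the PP6 cultures, which fixed their sign as well. The count takes 1 probe set a gene: Csf1r, counted at 1.05, gave 0.25 and -0.49 at its other probe sets, which were above the array median in all 4 cultures. The differences ran from that 1.05 to 4.57 for Coro1a, with Cd53 at 2.16 ± 0.55 (SE) and Laptm5 at 1.42 ± 0.37, and Tyrobp, Lyz2, Lcp1, Cd68, Fcer1g and Spi1 between 1.26 and 2.79. Their summed signal was 7772 and 8125 in MACS and 17100 and 47716 in PP6. Ptprc, which encodes the CD45 selected against in the MACS sort, read 8.25 and 8.67 in MACS and 9.71 and 11.43 in PP6. Another Ptprc probe set, below the array median in every culture, gave -1.08, and another of Cd53, dim in most cultures, gave -1.03. The other probe sets of Coro1a, Laptm5 and Lcp1 ran from 0.10 to 3.03. PP6 replicate 3 stood above PP6 replicate 2 at the median marker, by 2.84 against 1.25 over the MACS mean, and likewise at Selplg. Set against the mean of the leukocyte markers in each culture, Selplg read 7.54 and 10.12 in MACS and 9.90 and 10.20 in PP6. MACS replicate 2 alone stood apart, and there Selplg itself read 6.44, below the array median. The mean also held dim values in that culture, such as Coro1a at 4.84 and Fcer1g at 7.31. The filter had fixed the sign of Selplg and of 5 of the markers, so nothing is read from this scale. The Selplg difference on that scale was 1.22, and the part of leukocyte content in the Selplg signal was not tested.

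**Figure D5:**
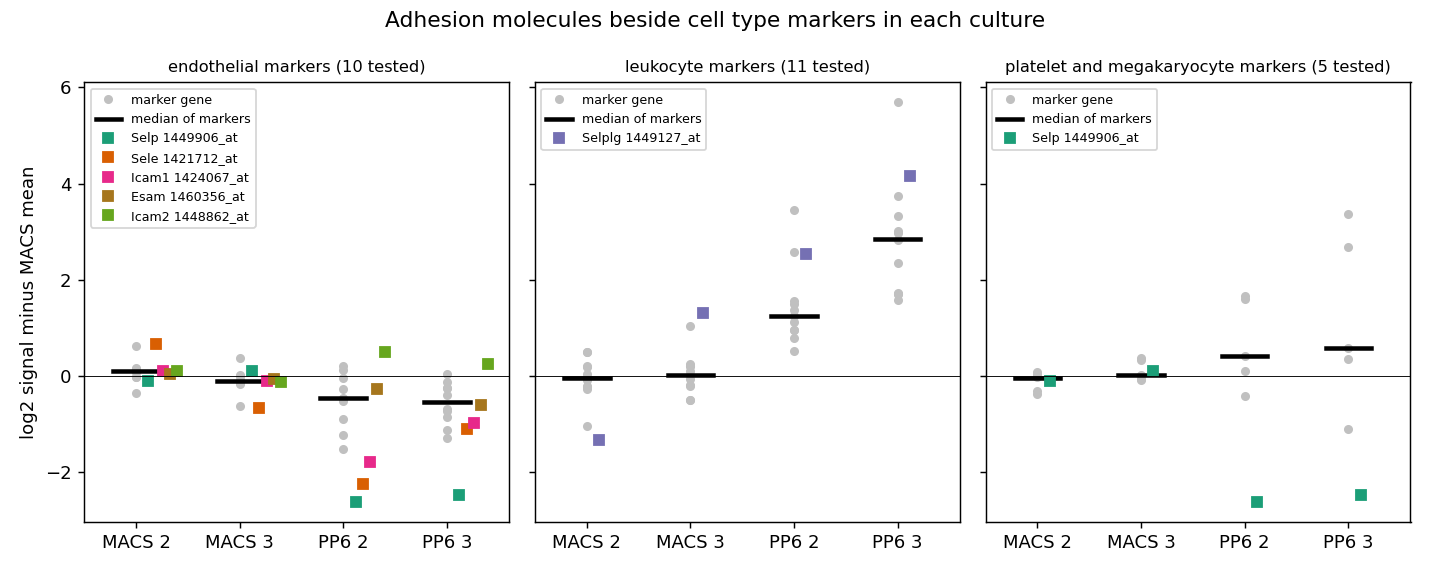
Log2 signal minus the MACS mean (vertical axis) in each culture for marker genes of endothelium, leukocytes and platelets (grey points, black bars at their median) and for members (coloured squares). Selp, drawn at 1449906_at, lies below every endothelial marker shown in both PP6 cultures. Selplg and the leukocyte marker medians lie above the MACS mean in PP6, with the sign of Selplg fixed by the filter.

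Markers of the remaining cell types give the setting for Vcam1 and Icam1, which muscle and stromal cells also make. Counts here are at an unadjusted p of 0.05 in limma's fit, beside 5.81% higher and 5.44% lower of all tested genes. Of 6 tested satellite cell and myoblast markers 2 were higher and 1 lower. They were Myog at 2.26 ± 0.45 (SE), Des at 1.27 ± 0.28 and Pax7, the satellite cell factor, at -1.56 ± 0.40. A second Des probe set, above the array median in all 4 cultures, gave -0.28. Itga7, Cdh15 and Myod1 differed by 0.65 ± 0.35, 0.54 ± 0.42 and -0.19 ± 0.27. Pax7 read 11.38 and 12.10 in MACS and 9.78 and 10.57 in PP6. Of 6 tested fibroblast and mesenchymal progenitor markers 4 were higher: Col1a1 at 2.17 ± 0.35, Dcn at 1.23 ± 0.27, Col3a1 at 1.17 ± 0.44 and Thy1 at 1.01 ± 0.32. Dimmer probe sets gave 1.17 for Col1a1, 0.06 for Dcn and 0.63 for Col3a1. Lum and Pdgfra differed by -0.21 ± 0.26 and 0.03 ± 0.22, and other Pdgfra probe sets gave 0.24 and -0.69. Of 6 mural cell markers 2 were higher, Abcc9 at 1.31 ± 0.40 and Notch3 at 0.93 ± 0.36, and Acta2, Pdgfrb, Rgs5 and Cspg4 lay between 0.11 and 0.78. Other probe sets gave 0.56 and 0.66 for Abcc9, 0.3 for Notch3, 0.99 for Pdgfrb and -1.29 for Cspg4. Those of Rgs5 ran from -0.8 to 2.3, and those of Acta2 gave -0.07 and -0.03. None of these genes passed after adjustment. Ly6a, the Sca1 gene, was not analysed here.

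For the 5 members whose brightest probe set spanned at least 1 log2 unit, the 3 genes nearest in profile over the 4 cultures were sought by root mean square distance between centred log2 values, among 12278 genes. Nearest to Icam1 were Itga5, the alpha chain of the fibronectin receptor, at a distance of 0.0559, then Kdm6a at 0.0871 and Thada at 0.0905. Nearest to Selp were Zfp13 at 0.109, Nexmif at 0.174 and Hhat at 0.185. The Selp profile was that of 1440173_x_at, whose probes can match other transcripts. It was the brightest across array types, between which levels cannot be compared. For Selplg they were Spon1 at 0.216 and the muscle genes Ttn, which encodes titin, at 0.221 and Mymk, which encodes the fusion protein myomaker, at 0.264. Cfap43, Srfbp1 and Shank3 were nearest to Sele, at 0.203 to 0.231, and Skp2, Tbcel and Mad2l1 to Vcam1, at 0.125 to 0.150. Over only 4 cultures such a match is a description of shape, and 4 of the 15 pairs were found again when dim probe sets were admitted.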

How the data were processed

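Total RNA of 4 cultures was hybridised without amplification to MOE430A and MOE430B arrays, 8 arrays in all. The deposited signal intensity is on a linear scale and was made by the authors with MAS5, per the submitters' processing notes, in a version not given in the sources used here. Each array had been scaled to a trimmed mean, 1500 or 1501 with 2% trimmed at each end, so the 2 types were scaled separately. Each culture was run on its own fluidics module, so module and culture cannot be told apart. The number of arrays limits the precision.

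Deposited intensities were rescaled to that mean and taken to log2 with no pseudocount. Probes were named through the platform annotation and current RefSeq symbols: 20393 probe sets of MOE430A and 14674 of MOE430B had 1 symbol, 691 and 245 several, and 1606 and 7656 none. Control probe sets were left out, and probe sets on both types were kept from MOE430A. A probe set was tested if above the median of its array in at least 2 cultures (23963 of 45037); for lists, 1 probe set a gene was used, MOE430A first and then the brightest. The PP6 minus MACS contrast was fitted with limma 3.58.1 under R 4.3.3 (lmFit, eBayes with intensity trend) with Benjamini-Hochberg adjustment at 0.05; the code was tested on simulated data. P-values measure only the spread between these cultures.

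Members, lists and motifs were chosen with earlier results of these data known. Genes named were all members, the 2 list genes of smallest p in each direction, marker genes where a count is described, the sort targets, and the 3 nearest profiles. Itga4, Madcam1, Fut7, Pecam1, Cldn5, Rela, Nfkbia and the remaining genes of the ezrin and ADAM list were named after their values were seen. Alternatives varied scaling, pseudocount, floor, filter, array type, trend, replicate block and each culture left out.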

Additional observations from a re-analysis of the deposited data

How the results depend on the processing

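The count of probe sets past an adjusted p of 0.05 was 0 in limma's fit, with 2760 at an unadjusted p of 0.05. It was 5 with a filter at the 75th percentile, 71 on MOE430A alone, 23 with a floor at the array median, and 0 to 1 with each culture left out. The unadjusted count was 1744 with the 75th percentile filter, 1734 on MOE430A alone, 1133 on MOE430B alone, which test fewer probe sets, and 1782 to 2929 with each culture left out. With the replicate number as a block 2 probe sets passed and 2276 were at an unadjusted p of 0.05; the numbers share no stated source, and the deviations of like-numbered cultures correlated at -0.0335 across probe sets, so no pairing was taken from them. With the floor, 2 of 9 member probe sets passed, Selp 1449906_at and 1440173_x_at, beside 0.096% of all 23963. The members were picked on this contrast, so nothing is read from that count. Median centring moved the median of all tested probe sets from 0.01 to -0.11 and the split at an unadjusted p of 0.05 from 1364 higher and 1396 lower to 948 and 1983; other member signs than that of Vcam1 1415989_at held in each setting run. Without PP6 replicate 3 Selplg was no longer at an unadjusted p of 0.05, and 19 list genes were, against 36, with 19 to 30 over the cultures left out. The 36 were counted over all lists, beside 5.81% higher and 5.44% lower of all tested genes. Leukocyte markers made up 11 of them, and 5 of those passed the brightness filter only through PP6. The lists were chosen with earlier results of these data known, so nothing is read from the counts of list genes. Of 15 nearest-profile pairs 4 were shared with no filter. Where a culture is left out, the lone one is assumed to vary like the other group. The causes of these shifts were not tested.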
